A study of Mus musculus with 12 samples.

Results

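Myc-high and Myc-low libraries of mouse gastrocnemius, a calf muscle, were compared over both legs, with the groups taken from the readout itself. All 12 libraries of the series were grouped by their raw Myc reads: the 6 libraries with 9 or more reads were called Myc-high, and the 6 with 2 or fewer Myc-low. The values just inside and just outside that boundary were 9 and 2 reads. Myc was left out of every fit, and no test of Myc between these groups is given. The comparison therefore shows how other transcripts go with the Myc reads of a library, and is not a test of genotype.

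The animals were 11-week-old female C57BL/6J mice, 3 labelled control and 3 labelled as over-expressing c-myc (Myc). Each gave an uncontracted left leg and a right leg that underwent acute contraction, so the labels form 4 groups of 3 libraries, and contraction cannot be told apart from body side. The sources used here give neither the means of over-expression, nor the cells it reached, nor the time from contraction to freezing. Each library was made with a 3' mRNA kit and held 1371732 to 1643216 counts (median 1526524), so that 1 read was worth 0.601 to 0.774 CPM (counts scaled by TMM to a common library total). Skeletal muscle transcripts were abundant, with Acta1, the skeletal actin, at 30582 to 45803 CPM and Ckm, the muscle creatine kinase, at 7873 to 9535 CPM.

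Myc is a basic helix-loop-helix transcription factor that pairs with Max and binds E-box sequences such as CACGTG. It is best known for raising the genes of ribosome production, nucleotide synthesis and cell growth. In skeletal muscle it is scarcely expressed at rest and is induced by loading.

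Myc (ENSMUSG00000022346) lies on the plus strand of chromosome 15 at 61985391 to 61990374 (mm10). In the left legs all libraries went the way of their labels, with 0, 1 and 0 Myc reads in controls 1 to 3 against 11, 9 and 9 in those labelled Myc. In the right legs 4 of 6 did not: Myc had 1, 10 and 59 reads in contracted control 1, 2 and 3 by label, but 32, 0 and 2 in contracted Myc 1, 2 and 3 by label. The Myc-high group thus contains the libraries labelled contracted control 2 and 3, and the Myc-low group those labelled contracted Myc 2 and 3. Levels in Myc-high libraries were 5.65 to 38.2 CPM, the highest being the library labelled contracted control 3 (exact Poisson 95% interval 29.1 to 49.3 CPM) and the next that labelled contracted Myc 1 (22.1 CPM, 15.1 to 31.2). The remaining 4 Myc-high libraries, 3 of them left legs, lay at 5.65 to 6.96 CPM, with lower interval ends of 2.58 to 3.46 CPM. In Myc-low libraries the highest level was 1.20 CPM (0.146 to 4.34), an interval that overlaps those of these 4 libraries. A library without a read could still hold up to 2.35 CPM. These intervals cover counting error only. Why 4 libraries go against their labels was not tested.

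**Figure D1:**
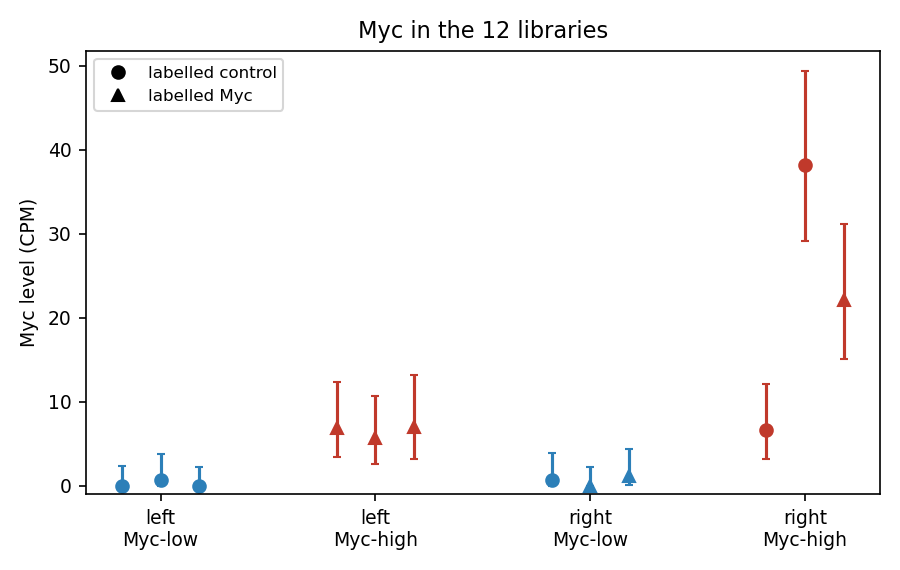
Myc level in CPM (y axis) in each of the 12 libraries, by leg and group on the x axis, with exact Poisson 95% intervals of the read count as bars; circles are libraries labelled control and triangles libraries labelled Myc. The 3 left Myc-high libraries carry triangles only, while the right Myc-high group holds 2 circles and 1 triangle, reaching 38.2 CPM.

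The 2 groups differed little in depth, with medians of 1496464 counts in Myc-high and 1604494 in Myc-low libraries. Mitochondrial transcripts took 29.4 to 35.2% of the reads in Myc-high libraries (median 33.0%) and 27.1 to 33.7% in Myc-low libraries (median 28.3%), so that this share moved with the grouping, with overlap. Most of it came from 1 transcript, mt-Nd4, at 22.9 to 29.4% of the reads in Myc-high and 21.1 to 27.6% in Myc-low libraries. The part of the mitochondrial share in the results was not tested. Of the 6 animals, 4 gave a leg to each group, while control 1 gave both legs to Myc-low and Myc 1 both legs to Myc-high. Nothing in the labels beyond the animal ties libraries together, and the p-values treat the 12 libraries as separate samples.

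With leg as a covariate, 72 of 6675 genes tested passed an adjusted p under 0.05 in edgeR's quasi-likelihood test (Benjamini-Hochberg), which is 1.08% of all genes tested. Of these, 57 were higher in Myc-high libraries (0.854%) and 15 lower (0.225%). An unadjusted edgeR p under 0.05 was reached by 720 of the 6675, the background for the unadjusted counts of the lists below. The higher genes were mostly ribosomal proteins, nucleolar proteins of ribosome assembly, translation elongation factors, and chaperones and import proteins of mitochondria. The lower genes included the fibrillar collagens Col1a1 and Col3a1, the antigen presentation genes H2-Ab1 and Cd74, immunoglobulin heavy chain Ighm, the AP-1 factor Jund and the fast-fibre tropomyosin Tpm1. Most changes were small: the median size was 0.521 on the log2 scale, and 7 genes differed by over 2-fold, 5 of them higher. In 62 of the 72 the Myc-high and Myc-low libraries did not overlap in either leg, which over all genes tested held for 1.62% in the higher and 0.899% in the lower direction.

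The count of 72 rests on how the libraries are modelled. With the animal as a fixed block, which is the pairing of legs that the titles give, no gene passed in edgeR's test, with 483 at an unadjusted p under 0.05. This block fits a term for each animal, which leaves less to estimate the spread. The part of that in the count was not tested. All 48 called genes followed under that setting kept their direction, with edgeR adjusted p from 0.0548 to 0.663. With the 8 libraries whose Myc reads go the way of their labels, 52 genes passed, 46 of them among the 72. Those 8 libraries are all left legs and the right legs of control 1 and Myc 1. They also took part in choosing the 72, so a call kept with these 8 libraries is not an independent check. Of the 48 genes followed, 18 lost their call there, with edgeR adjusted p up to 0.275: Dph5, Acy1, Tsr1, Rpl22l1, Nop16, Mif, Mvd, Phb2, Cct8, Jund, Ppp1r1a, Atf5, Igfbp5, Col3a1, Pdpn, Cd74, H2-Ab1 and Ighm. With the labelled genotype as a further covariate, 28 passed, all among the 72. Leaving out 1 library gave 38 to 67 genes. The count fell to 45 and 46 without uncontracted control 1 and 2, to 41 and 38 without uncontracted Myc 1 and 2, and to 46 without contracted Myc 1. The number of lower genes, 15, also varied: it was 7 without uncontracted control 1, 6 and 4 without uncontracted Myc 1 and 2, 8 without contracted Myc 3, 4 with the label as a covariate, 8 with library totals alone, 23 in DESeq2 and 46 with no low-count filter.

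Because CACGTG is the sequence best known for Myc binding, the promoters of the called genes were searched for it in RefSeq promoter windows of GRCm38.p6, running from 250 bases before to 50 after each start. The motif reads the same on both strands, and a gene counts once if any listed promoter holds it. A promoter was matched for 45 of the 57 higher genes, and 8 of these 45 (17.8%) held the motif: Timm10, Rps19, Eef2, Nme1, Prmt3, Tsr1, Hspd1 and Acy1. Over all genes tested it was 673 of 5285 matched (12.7%), and over all promoters of the same length 2349 of 32851 (7.15%). Since over 1 in 5 genes in the first 2 of these sets had no match, a comparison of the shares is void. Of the 27 higher ribosomal protein genes 20 were matched, and 1 held it. For all 78 tested ribosomal protein genes it was 6 of 57 matched (10.5%). Of the 15 lower genes 9 were matched, and 1 held it (11.1%). The same limit on comparing shares holds for these sets. Below are the 100 bases before the start of 4 higher genes with 1 match each. By smallest edgeR p, these are the first 4 higher genes under the naming rule whose match lies in those 100 bases. They encode a translation factor, a nucleotide kinase, an arginine methyltransferase and a chaperonin. The sequences are on the gene's strand, 5′ to 3′, with CACGTG in capitals, which begins 43, 18, 13 and 80 bases before the start. A match is a description of the sequence and not a binding site.
Eef2, chr10:81176531-81176630, plus strand: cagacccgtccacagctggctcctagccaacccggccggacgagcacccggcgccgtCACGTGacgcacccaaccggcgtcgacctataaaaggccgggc
Nme1, chr11:93968273-93968372, minus strand: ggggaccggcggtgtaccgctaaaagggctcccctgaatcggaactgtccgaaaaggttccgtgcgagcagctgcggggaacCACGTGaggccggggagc
Prmt3, chr7:49778258-49778357, plus strand: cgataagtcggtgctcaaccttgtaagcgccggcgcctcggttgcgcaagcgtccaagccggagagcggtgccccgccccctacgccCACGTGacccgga
Hspd1, chr1:55088244-55088343, minus strand: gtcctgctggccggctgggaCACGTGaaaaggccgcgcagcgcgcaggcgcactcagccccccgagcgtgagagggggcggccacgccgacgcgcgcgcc

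Cytosolic ribosomal proteins, the protein part of the ribosome, made up the largest called list. Of 83 measured genes, 78 were tested, 27 were higher and 0 lower in edgeR's test, and 51 did not pass. Among all genes tested 0.854% were called higher. The median log2 difference of the 78 was 0.33, against -0.01 over all genes tested, and 75 lay above 0, where 48.1% of all genes did. At an unadjusted edgeR p under 0.05 there were 60, all higher, where 720 of the 6675 genes tested reached it, and DESeq2 called 41. In 37 of the 78 Myc-high lay above Myc-low without overlap in both legs, which held for 1.62% of all genes tested. Rpl35a and Rpl3l were among those below 0, with differences of -0.19 and -0.12 and edgeR adjusted p of 0.862 and 0.634. Rpl3l is a paralogue of Rpl3 that is restricted to striated muscle. The difference of Rpl35a turned above 0 with the 8 libraries whose Myc reads go the way of their labels, at 0.0295.

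The summed level of the ribosomal protein list separated the groups in all 12 libraries. The Myc-low left legs held 16890, 16536 and 16682 CPM and the Myc-low right legs 16952, 16228 and 16853. The Myc-high left legs held 21637, 21539 and 21578 CPM and the Myc-high right legs 19127, 20133 and 22623. As a share of all reads the list took 1.52 to 1.77% in Myc-low and 1.92 to 2.29% in Myc-high libraries. The libraries labelled contracted control 2 and 3 were the lowest of the Myc-high group, yet above every Myc-low library, and those labelled contracted Myc 2 and 3, at 16228 and 16853 CPM, lay beside the uncontracted controls at 16536 to 16890.

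Rpl36a, a protein of the large subunit encoded on chromosome X (134585654 to 134588062, plus strand), had the smallest adjusted p together with Timm10. It stood at 151, 167 and 181 CPM in Myc-low left legs and 156, 144 and 169 in Myc-low right legs. It stood at 280, 247 and 265 CPM in Myc-high left legs and 228, 240 and 273 in Myc-high right legs. The groups did not overlap, and the difference was 0.66 ± 0.08 on the log2 scale (SE, n = 6 libraries per group, edgeR adjusted p = 0.000210). It was 0.66 in each leg taken alone, and 0.57 with the animal block (edgeR adjusted p = 0.0548). Rpl37 ranged from 545 to 657 CPM in Myc-high (median 631) and from 412 to 449 in Myc-low libraries (median 436), a difference of 0.51 ± 0.07. Rpl32, another large-subunit protein, ranged from 282 to 335 CPM (median 299) against 193 to 227 (median 208), a difference of 0.54 ± 0.08. Rpl38 ranged from 172 to 227 CPM (median 197) against 118 to 138 (median 134), a difference of 0.58 ± 0.09. None of these 3 overlapped between the groups, and each was called with the 8 libraries whose reads go the way of their labels. Those 8 libraries also took part in choosing the genes, so that call is not an independent check. Ribosomal protein genes have many processed copies in the genome, and reads shared with those copies may have been counted elsewhere or dropped, so single members are less certain than the list.

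The rRNA processing and nucleolar assembly list, which covers proteins that cut, modify and assemble ribosomal RNA, had 7 of 78 tested genes higher and 0 lower. Over all genes tested 0.854% were called higher and 48.1% lay above 0. The list's median log2 difference was 0.31, and 67 of its genes lay above 0. At an unadjusted p under 0.05 there were 24, all higher. Ncl, nucleolin, a nucleolar protein that coats pre-rRNA and an established Myc target, lies on chromosome 1 at 86344719 to 86359400 (minus strand). It was at 63.6, 82.1 and 77.1 CPM in Myc-low left legs and 129, 135 and 115 in Myc-high left legs. On the right it was at 90.3, 101 and 96.2 CPM in Myc-low and 134, 141 and 133 in Myc-high libraries. Every Myc-high library was above every Myc-low library, with a difference of 0.63 ± 0.09 (edgeR adjusted p = 0.00102).

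Npm1, nucleophosmin, a histone chaperone of the nucleolus, ranged from 30.8 to 54.4 CPM in Myc-high (median 44.1) and from 19.7 to 28.3 in Myc-low libraries (median 26.2). Its difference was 0.79 ± 0.13 (edgeR adjusted p = 0.00217). Nhp2, a core protein of the H/ACA particles that make pseudouridine in rRNA, ranged from 51.0 to 75.2 CPM against 33.0 to 43.9, a difference of 0.66 ± 0.12. Tsr1, needed for maturation of the small subunit, ranged from 19.5 to 34.5 CPM against 8.57 to 19.4, a difference of 0.76 ± 0.16. Neither of these overlapped between the groups, though the lowest Myc-high and highest Myc-low libraries for Tsr1 were nearly equal. Gnl3, nucleostemin, was higher by 0.75 ± 0.18 with overlap between its groups, which lay at 18.9 to 38.9 and 10.2 to 26.7 CPM. The summed level of the list was 1893 to 1989 CPM in left and 2074 to 2348 in right Myc-high legs. In Myc-low legs it was 1529 to 1551 CPM on the left and 1683 to 1960 on the right, so the groups were apart within each leg but not across legs. RNA polymerase I machinery, which transcribes rRNA, had 0 of 10 tested genes called in edgeR and in DESeq2, with 2 at an unadjusted p under 0.05. The lowest edgeR p were those of Polr1d and Polr1a, with differences of 0.42 ± 0.16 and 0.43 ± 0.17 (edgeR adjusted p = 0.310 and 0.324).

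Among translation factors 2 of 50 tested genes were higher and 0 lower, with a list median of 0.08 and 41 above 0. At an unadjusted p under 0.05 there were 10, of which 9 were higher. For all genes tested the shares were 0.854% called higher and 48.1% above 0. Eef2, the elongation factor that moves the ribosome along the mRNA, stood at 785 to 946 CPM in Myc-low (median 894) and 1120 to 1244 in Myc-high libraries (median 1160). Its groups did not overlap, and its difference was 0.43 ± 0.07 (edgeR adjusted p = 0.00235). Eef1b2, an exchange factor of elongation factor 1, ranged from 172 to 200 CPM against 118 to 152, a difference of 0.47 ± 0.08. Dph5, an enzyme that builds diphthamide, a modified histidine found on Eef2, ranged from 6.93 to 13.2 CPM (median 10.7) against 3.01 to 4.90 (median 4.14). Dph5 thus had no overlap either and differed by 1.41 ± 0.25 (edgeR adjusted p = 0.00447), from 5 to 20 reads per library. With the 8 libraries whose reads go the way of their labels its edgeR adjusted p was 0.0950. Prmt3, which methylates ribosomal protein S2, had medians of 28.6 against 15.8 CPM, without overlap, and a difference of 0.82 ± 0.17. None of 22 aminoacyl-tRNA synthetases was called in edgeR's test or in DESeq2, with 3 at an unadjusted p under 0.05, a list median of 0.12 and 20 above 0.

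Chaperonins and mitochondrial import proteins, which bring proteins into the mitochondrion and fold them, had 6 of 33 tested genes higher and 0 lower. The list median was 0.26, and 31 lay above 0. Across all genes tested 0.854% were called higher and 48.1% lay above 0. Timm10, a small chaperone of the space between the mitochondrial membranes, lies on chromosome 2 at 84826997 to 84830213 (plus strand). In the left legs it stood at 18.5, 21.5 and 18.4 CPM in Myc-low and 47.9, 52.1 and 42.6 in Myc-high libraries. On the right it stood at 25.2, 23.0 and 24.7 CPM in Myc-low and 43.4, 44.1 and 38.6 in Myc-high libraries. Every Myc-high library was above every Myc-low library of either leg. The difference was 1.04 ± 0.13 (edgeR adjusted p = 0.000210), and it was 1.06 with the animal block (edgeR adjusted p = 0.0548) and 1.13 with the 8 libraries whose reads go the way of their labels.

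Hspd1 and Hspe1 encode the chaperonin HSP60 and its partner HSP10. They are neighbours on chromosome 1 that run in opposite directions and overlap at their 5′ ends, while the libraries came from a 3' mRNA kit. The strand setting of the counting is not given, so any reads in the overlap could not be set apart. Hspd1 ranged from 28.6 to 46.6 CPM in Myc-high and 17.8 to 35.5 in Myc-low libraries, a difference of 0.65 ± 0.14. Hspe1 ranged from 50.3 to 81.4 CPM against 41.4 to 53.4, a difference of 0.51 ± 0.11. Both overlapped over all 12 libraries but not within a leg. C1qbp, a protein of the mitochondrial matrix, had no overlap, at 50.2 to 66.2 against 26.7 to 44.9 CPM, and differed by 0.65 ± 0.13. The summed level of the list was 1779 to 2009 CPM in Myc-high and 1419 to 1615 in Myc-low libraries. Other mitochondrial lists held no call in edgeR's test. For their unadjusted counts the background was 720 of all 6675 genes tested. Mitochondrial ribosomal proteins had 0 of 72 called, 13 at an unadjusted p under 0.05, 60 above 0 and a median of 0.15, and DESeq2 called 0. Nuclear subunits of oxidative phosphorylation had 0 of 77 called, 10 at an unadjusted p under 0.05, 68 above 0 and a median of 0.10, and DESeq2 called 1, Ndufb10. Mitochondrially encoded transcripts had 0 of 7 called by either tool, 1 at an unadjusted p under 0.05 and a median of 0.03.

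**Figure D2:**
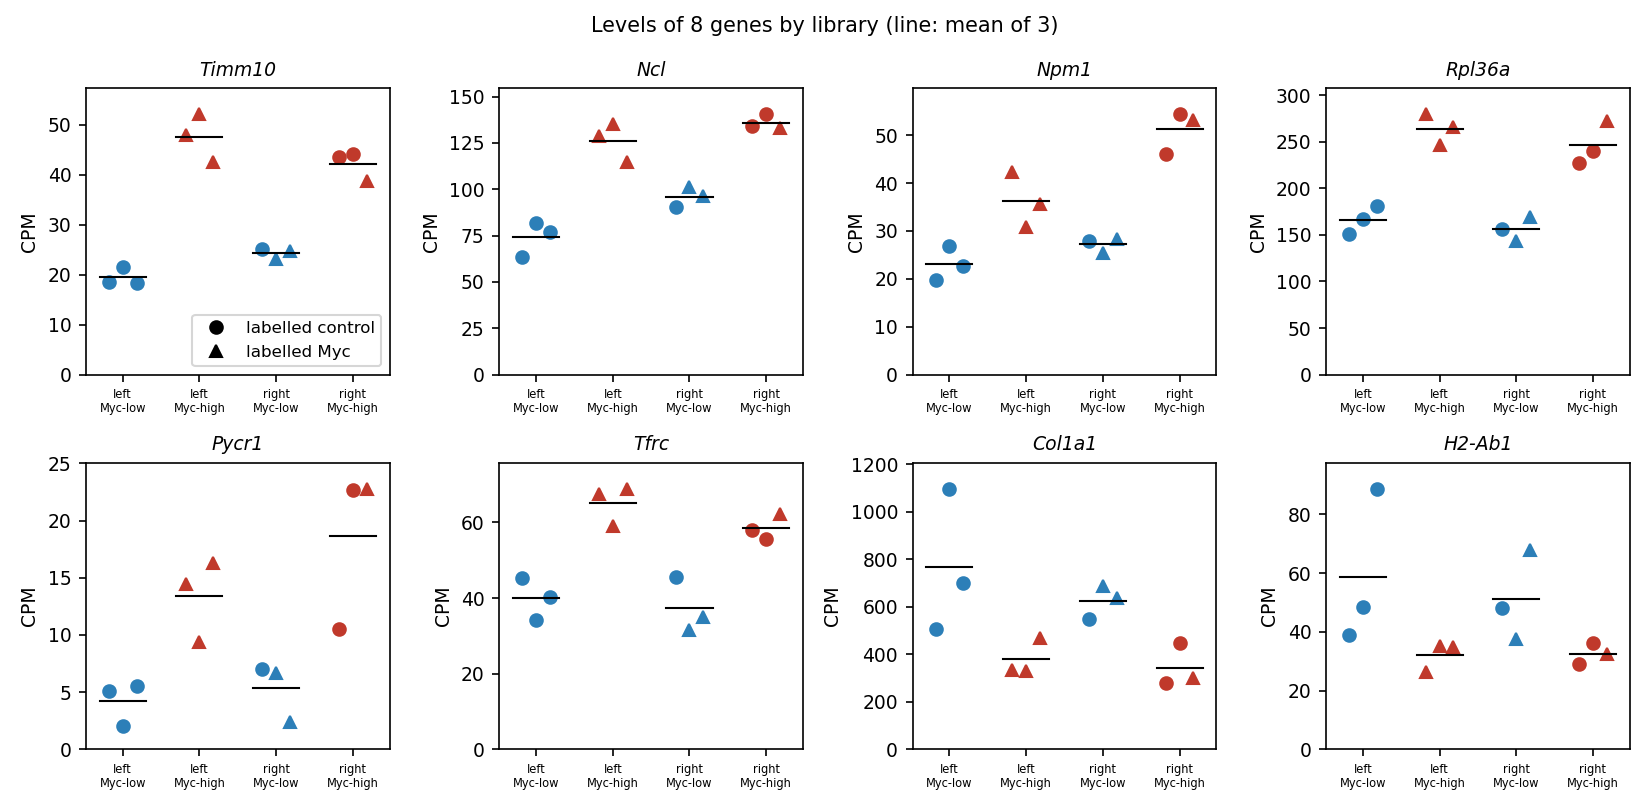
Levels in CPM (y axis, from 0) of 8 called genes in each library, by leg and group on the x axis; points are libraries, circles labelled control and triangles labelled Myc, and each line is the mean of 3 libraries. For Timm10 the circles of the right Myc-high group lie at 43.4 and 44.1 CPM and its triangle at 38.6 CPM. The distance between circles and triangle in that group differed from gene to gene.

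Among enzymes of metabolism Pycr1, which makes proline in mitochondria, had the largest difference of all called genes. It stood at 5.09, 2.02 and 5.51 CPM in Myc-low left legs against 14.5, 9.42 and 16.2 in Myc-high left legs. Its right-leg counts were 10, 11 and 4 reads in Myc-low against 16, 35 and 33 in Myc-high libraries. In CPM the right Myc-high libraries stood at 10.5 and 22.7 (labelled contracted control 2 and 3) and 22.8 (labelled contracted Myc 1). The 16 reads of contracted control 2 thus lay nearer to the highest right Myc-low library, with 11, than to contracted Myc 1, with 33. The groups did not overlap, the difference was 1.72 ± 0.28 (edgeR adjusted p = 0.00217), and the reads behind it numbered 3 to 35 per library. Nme1, a nucleoside diphosphate kinase and the single called gene of 30 in the list of nucleotide, one-carbon and polyamine synthesis, ranged from 37.6 to 54.0 CPM against 23.5 to 40.3, with overlap. Its difference was 0.78 ± 0.14, and it was 1.11 in the left and 0.47 in the right legs. Beside the 1 called gene of this list, 0.854% of all genes tested were called higher. Cad, which catalyses the first steps of pyrimidine synthesis and is a textbook Myc target, differed by 0.76 ± 0.24 and did not pass (edgeR adjusted p = 0.169). Azin1 and Smox, of polyamine metabolism, had differences of -0.49 ± 0.15 and -0.34 ± 0.12 that also did not pass (edgeR adjusted p = 0.153 and 0.230). Acy1, an enzyme that frees amino acids from their acetylated forms, differed by 0.91 ± 0.22, with 10.7 to 15.5 CPM against 4.04 to 9.80.

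Tfrc, the transferrin receptor that brings iron into cells and another established Myc target, ranged from 55.7 to 68.9 CPM in Myc-high (median 60.6) and from 31.5 to 45.5 in Myc-low libraries (median 37.6). Its groups did not overlap, and the difference was 0.68 ± 0.11 (edgeR adjusted p = 0.00236). Tfrc is outside the rule for named genes and was chosen after its values were seen. Sh3bp1, an activator of GTP hydrolysis by Rac, and Reep6, a protein that shapes the endoplasmic reticulum, differed by 1.45 ± 0.30 and 1.43 ± 0.26 without overlap. Their levels were low, at 8.42 to 15.2 against 1.35 to 7.64 CPM for Sh3bp1 and 6.96 to 13.2 against 2.45 to 6.01 CPM for Reep6. The partners of Myc itself showed no call: of the 14 tested genes of the MAX network none passed in edgeR's test or in DESeq2, 0 reached an unadjusted p under 0.05, and the list median was 0.01. Max differed by -0.25 ± 0.29, Mga by 0.41 ± 0.22 and Mxd4 by 0.24 ± 0.14.

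**Figure D3:**
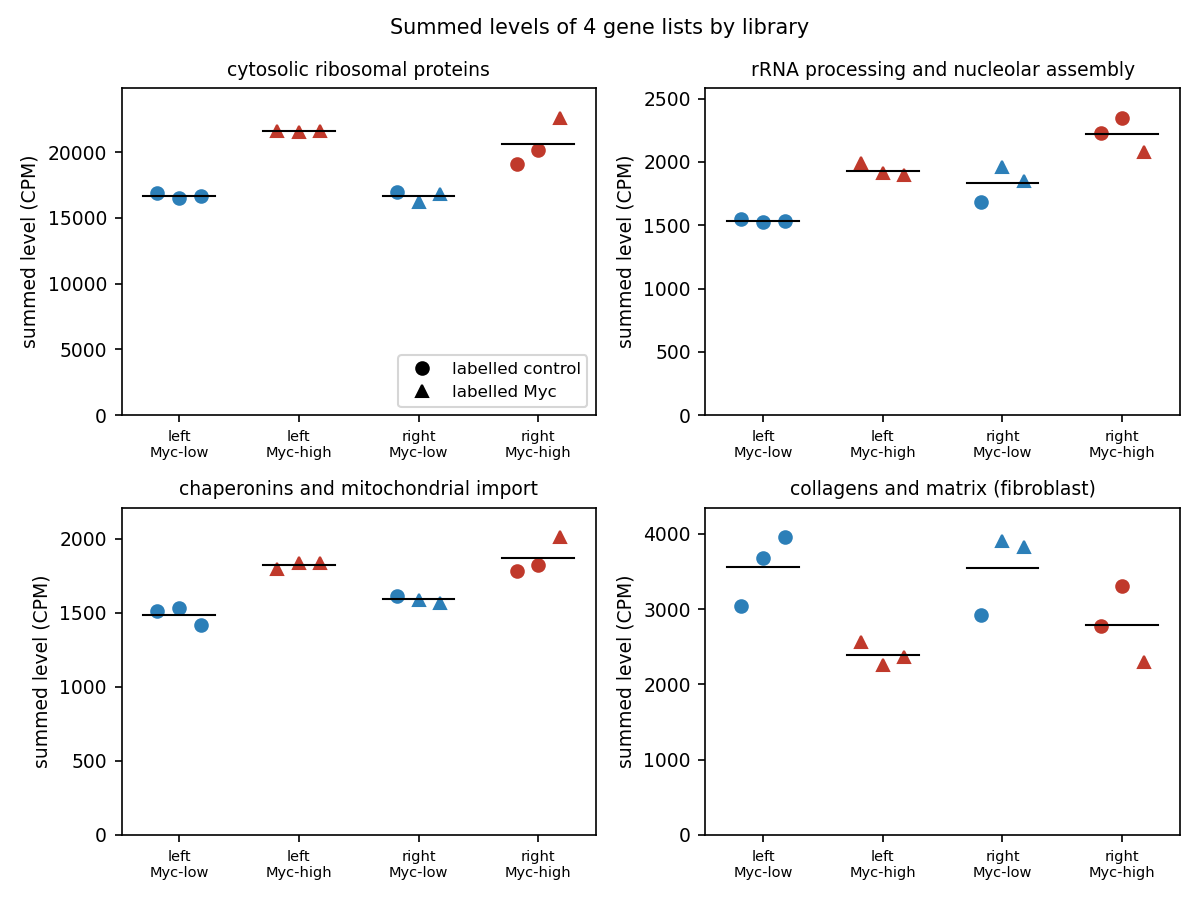
Summed level in CPM (y axis, from 0) of 4 gene lists in each library, by leg and group on the x axis; points are libraries, circles labelled control and triangles labelled Myc, and each line is the mean of 3. The ribosomal protein list lies at 16228 to 16952 CPM in Myc-low and 19127 to 22623 in Myc-high libraries, and the matrix list overlaps between the groups, at 2254 to 3310 CPM in Myc-high and 2923 to 3951 in Myc-low libraries.

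Of the lists that were lower, collagens and matrix had 2 of 22 tested genes lower and 0 higher. Their median was -0.22, and 3 lay above 0. Over all genes tested 0.225% were called lower and 48.1% lay above 0. In this list 9 genes reached an unadjusted p under 0.05, all lower, and DESeq2 called 3, Sparc being the one added. Col1a1, the main chain of type I collagen, lies on chromosome 11 at 94936224 to 94953042 (plus strand). It stood at 508, 1097 and 701 CPM in Myc-low left legs and 334, 332 and 470 in Myc-high left legs. On the right it stood at 551, 688 and 636 CPM in Myc-low and 279, 448 and 302 in Myc-high libraries. No library overlapped, and the difference was -0.95 ± 0.15 (edgeR adjusted p = 0.00194). Col3a1 ranged from 62.2 to 75.1 CPM in Myc-high against 80.8 to 150 in Myc-low libraries, a difference of -0.57 ± 0.12, also without overlap. Sparc, a matrix protein that binds collagen, and Tnmd, a tendon marker, had differences of -0.51 ± 0.13 and -0.96 ± 0.25 that did not pass in edgeR (adjusted p = 0.0607 and 0.0612). In whole muscle, fewer cells of a type and less RNA per cell cannot be told apart.

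H2-Ab1, the beta chain of a class II antigen presentation molecule, ranged from 26.5 to 36.3 CPM in Myc-high (median 33.6) and from 37.6 to 88.7 in Myc-low libraries (median 48.4). The groups did not overlap, and the difference was -0.77 ± 0.18 (edgeR adjusted p = 0.0396). Cd74, the invariant chain that guides class II molecules, overlapped at 43.5 to 66.6 against 62.5 to 119 CPM and differed by -0.67 ± 0.15. Ighm, the heavy chain of immunoglobulin M, had 3 to 16 reads per library, with 1.97 to 6.19 against 7.22 to 10.2 CPM and a difference of -1.17 ± 0.27. None of these 3 was called with the 8 libraries whose reads go the way of their labels, where their edgeR adjusted p were 0.100, 0.143 and 0.145.

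Markers of immune cells were summed as well, since all 3 genes are known from such cells. Of 14 macrophage markers 6 were tested, none was called in edgeR's test or in DESeq2, 3 reached an unadjusted p under 0.05, all 6 lay below 0, and their median was -0.35. Their summed level over the list was 120 to 143 CPM in Myc-high and 156 to 227 in Myc-low libraries, without overlap. Lymphocyte markers, of which 2 of 13 were tested and 1 had no read in any library, include Ighm itself, which was the one called, and both tested genes were lower at an unadjusted p under 0.05. Without Ighm the list summed to 0 to 10.4 CPM in Myc-high and 1.4 to 47.1 in Myc-low libraries, with overlap. Of 8 neutrophil markers 3 had no read in any library. Neither edgeR nor DESeq2 called any of 4 Schwann cell markers (median -0.28, 1 at an unadjusted p under 0.05) or any of 16 endothelial markers (median -0.06, 0 at an unadjusted p under 0.05). The part of other cell types in the lower genes was not tested.

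Fast-fibre genes, which dominate this muscle, had 1 of 17 tested genes lower, Tpm1, and 15 of the 17 lay below 0 with a median of -0.20. At an unadjusted p under 0.05 there were 13, of which 12 were lower, and DESeq2 called 6. Among all genes tested 0.225% were called lower and 48.1% lay above 0. Tpm1, a tropomyosin of the thin filament, stood at 15259 to 19657 CPM in Myc-high (median 18177) and 19613 to 25536 in Myc-low libraries (median 23261). Its groups overlapped by 1 library, the one labelled contracted Myc 3, and the difference was -0.35 ± 0.07 (edgeR adjusted p = 0.0121). The summed level of the list was 171933 to 190940 CPM in Myc-high and 196249 to 228719 in Myc-low libraries, again without overlap. Actn3, the actinin of fast fibres, and Pvalb, parvalbumin, had differences of -0.28 ± 0.08 and -0.33 ± 0.09 that did not pass (edgeR adjusted p = 0.0819 and 0.0957). Slow-fibre genes had 0 of 13 called by either tool, 2 at an unadjusted p under 0.05 and a median of 0.09. The fast-fibre list took 17.2 to 19.6% of the reads in Myc-high and 20.2 to 22.0% in Myc-low libraries, and its part in the differences of other lists was not tested.

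Immediate early genes, which muscle raises within minutes to hours of activity, had 1 of 23 tested genes lower and 22 of 23 below 0, with a median of -0.31. Jund, an AP-1 factor, was the called one, at -0.43 ± 0.10 (edgeR adjusted p = 0.0406). Across all genes tested 0.225% were called lower and 48.1% lay above 0. In the left legs Jund stood at 151, 131 and 114 CPM in Myc-low and 95.2, 91.0 and 91.3 in Myc-high libraries. In the right legs it stood at 210, 303 and 280 CPM in Myc-low and 221, 224 and 172 in Myc-high libraries, where the groups overlapped. Egr1 and Nr4a3, transcription factors of this group, had differences of -0.62 ± 0.23 and -0.79 ± 0.27 that did not pass (edgeR adjusted p = 0.280 and 0.219). Summed, the list held 245 to 290 CPM in Myc-high and 312 to 386 in Myc-low left legs, and 549 to 920 against 761 to 1254 in right legs. None of 26 genes of the load and stress list was called by edgeR or DESeq2, with 6 at an unadjusted p under 0.05, a median of -0.23 and 3 above 0.

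The other lower genes that the naming rule takes were mixed in kind. Vwa7 fell furthest, at 3.95 to 6.21 CPM in Myc-high (median 5.11) and 9.18 to 21.0 in Myc-low libraries (median 13.8), a difference of -1.49 ± 0.25 (edgeR adjusted p = 0.00245). Igfbp5, which binds insulin-like growth factors, ranged from 52.1 to 62.5 CPM against 65.2 to 93.6, a difference of -0.50 ± 0.10. Meg3, a long noncoding RNA, differed by -0.49 ± 0.11, and Atf5, a stress-responsive transcription factor, by -0.47 ± 0.11. None of these 4 overlapped between the groups. Pdpn, a membrane glycoprotein, differed by -0.67 ± 0.16 with groups apart in each leg but not across legs, at 7.56 to 8.79 against 9.42 to 15.9 CPM on the left and 28.5 to 47.4 against 51.8 to 64.9 CPM on the right.

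Lists of energy metabolism and protein breakdown had no call in edgeR's test and medians from -0.08 to 0.04. The background for the unadjusted counts here was again 720 of all 6675 genes tested. Glycolysis and glycogen had a median of -0.08 over 31 tested genes, of which 9 lay above 0. At an unadjusted p under 0.05 there were 9 lower and 1 higher, and DESeq2 called 1, Eno3, an enolase of muscle. Its summed level was 45565 to 49874 CPM in Myc-high and 50807 to 62799 in Myc-low right legs. In left legs the list overlapped, at 53325 to 60422 against 56069 to 69286 CPM. Fatty acid oxidation had a median of 0.04 over 23 tested genes and the proteasome one of -0.02 over 30, each with 2 at an unadjusted p under 0.05 and 0 in DESeq2. The cell cycle list had a median of -0.09 over 11 tested genes, with 4 at an unadjusted p under 0.05, and the circadian clock one of -0.00 over 15, with 1, and DESeq2 called 0 in both. Satellite cell markers had a median of -0.05 over 7 tested genes and smooth muscle and pericyte markers one of -0.05 over 10, with 1 and 0 at an unadjusted p under 0.05. Erythrocyte (5 tested, median 0.06), adipocyte (7 tested, 0.09) and neutrophil markers (2 tested, -0.29) had 0 at an unadjusted p under 0.05, and DESeq2 called 0 in these 5 marker lists. In the cell cycle list Cdkn1c, an inhibitor of cyclin-dependent kinases, had a difference of -1.08 ± 0.28 that missed the threshold (edgeR adjusted p = 0.0625).

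When the same 12 libraries were grouped by label instead, with leg as covariate, 0 of 6675 genes passed in edgeR's test (0%), with 281 at an unadjusted p under 0.05, and DESeq2 also called 0. The smallest adjusted p was 0.995. This comparison shares 8 libraries in the same group with the one by Myc reads, including all left legs, so the 2 are not independent. For the 72 called genes the median size of the log2 difference was 0.234 by label, where it was 0.521 by reads. Timm10 differed by 0.42 ± 0.24 by label, Rpl36a by 0.28 ± 0.15, Ncl by 0.30 ± 0.15, Pycr1 by 0.44 ± 0.43 and Col1a1 by -0.34 ± 0.25. The ribosomal protein list had a median of 0.19 and the rRNA processing list one of 0.08 by label.

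**Figure D4:**
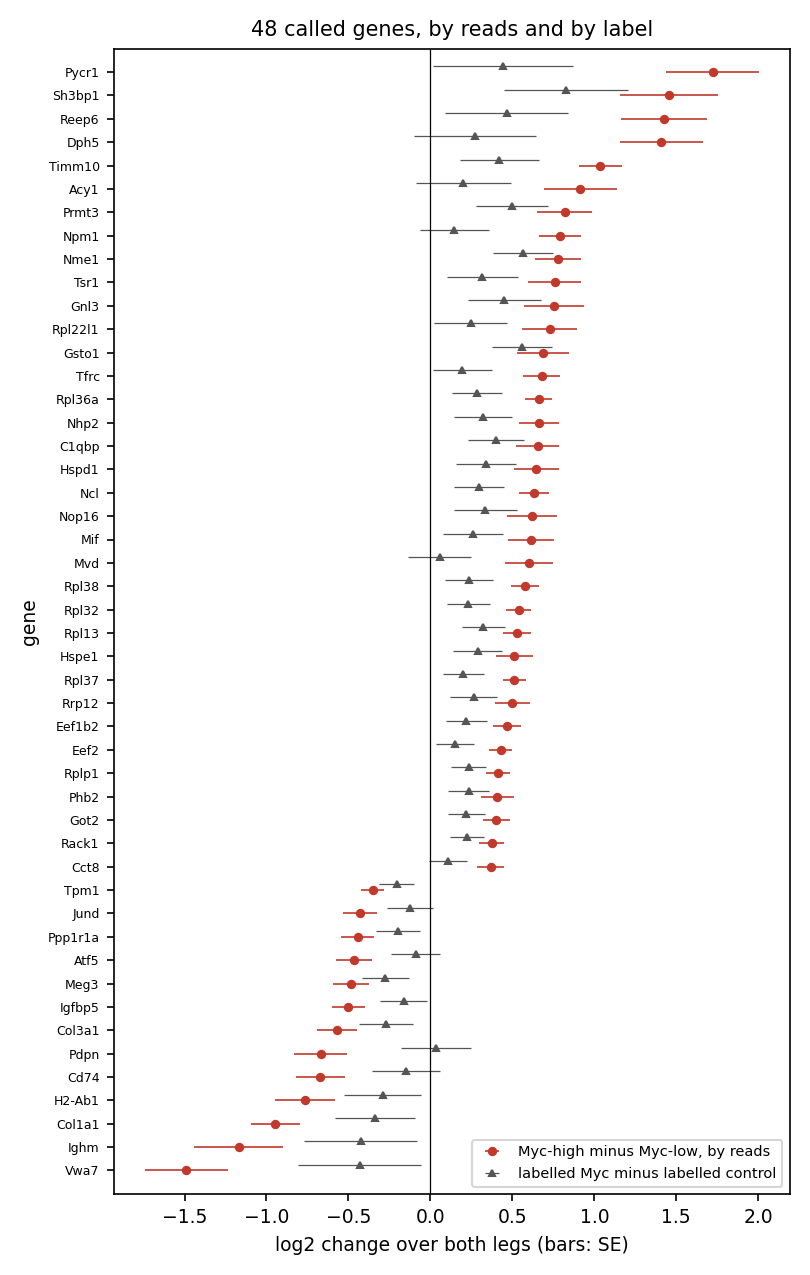
Log2 difference over both legs (x axis) of the 48 called genes that were followed under every setting (y axis), by Myc reads (red circles, Myc-high minus Myc-low) and by label (grey triangles, labelled Myc minus labelled control); bars are SE. The circles were called by their own p and run from -1.49 to 1.72, and the triangles, which share 8 libraries with them, lie nearer to 0, with a median size over all 72 called genes of 0.234 against 0.521.

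Each leg was then taken alone. In the left legs, where reads and labels give the same groups, 4 genes passed in edgeR's test (0.0599%), all higher: Timm10, Nme1, Ncl and Rpl36a, with differences of 1.29 ± 0.17, 1.11 ± 0.18, 0.77 ± 0.13 and 0.66 ± 0.12. Their edgeR adjusted p were 0.00223, 0.0169, 0.0211 and 0.0296. With the animal as a random block 11 genes passed there, in limma in place of edgeR. The correlation within animals in that fit was 0.00401, so the block itself carried almost no weight. In edgeR the count was 1 without any one of uncontracted control 2, uncontracted control 3 or uncontracted Myc 1, 2 or 3. It was 2 without uncontracted control 1. Without contracted Myc 1, which is not a left leg but enters the shared estimate of spread, it was 15.

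The differences of these 4 genes in the right legs come from other libraries of the same animals, although both tests share 1 estimate of spread over the 12 libraries. Grouped by Myc reads, 0 genes passed in the right legs in edgeR's test (0%), with 478 at an unadjusted p under 0.05. DESeq2 called 9, and limma with the random block called 2. The differences of the 4 genes in the right legs were 0.79 ± 0.17 for Timm10, 0.47 ± 0.18 for Nme1, 0.50 ± 0.13 for Ncl and 0.66 ± 0.12 for Rpl36a. The unadjusted p of these from edgeR were 0.000152, 0.0151, 0.000778 and 2.13e-05, and adjusted over all genes the smallest was 0.142. Timm10, Ncl and Rpl36a had no overlap between the 3 Myc-high and 3 Myc-low right legs, and Nme1 did overlap. Grouped by label, 0 genes passed in the right legs in edgeR's test (0%), with 205 at an unadjusted p under 0.05 and 0 in DESeq2. The differences were then -0.40 ± 0.23 for Timm10, 0.05 ± 0.21 for Nme1, -0.15 ± 0.17 for Ncl and -0.10 ± 0.19 for Rpl36a.

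List medians are given for the 3 comparisons for 4 of the lists. The median of the ribosomal protein list was 0.37 in the left legs and 0.30 in the right legs by reads, and -0.01 in the right legs by label. For rRNA processing it was 0.29, 0.30 and -0.11, for chaperonins and import 0.26, 0.22 and 0.04, and for collagens and matrix -0.33, -0.24 and 0.07. Across the 6675 genes the left differences correlated with the right differences by reads at r = 0.210 (Spearman 0.196) and with those by label at r = -0.0443 (Spearman -0.0205). These are descriptions across genes, which are not independent, and the legs come from the same animals.

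No gene passed for a difference between the legs in the change with Myc reads in edgeR's test (0%), with 209 at an unadjusted p under 0.05 and 0 in DESeq2. The largest contrast among the 4 left-called genes was that of Nme1, at -0.64 (right minus left), and Timm10 stood at -0.50, with unadjusted edgeR p of 0.0192 and 0.055 and adjusted p of 0.9997 for both. The 4 genes were chosen by their left difference, which favours a larger value on the left in this contrast.

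**Figure D5:**
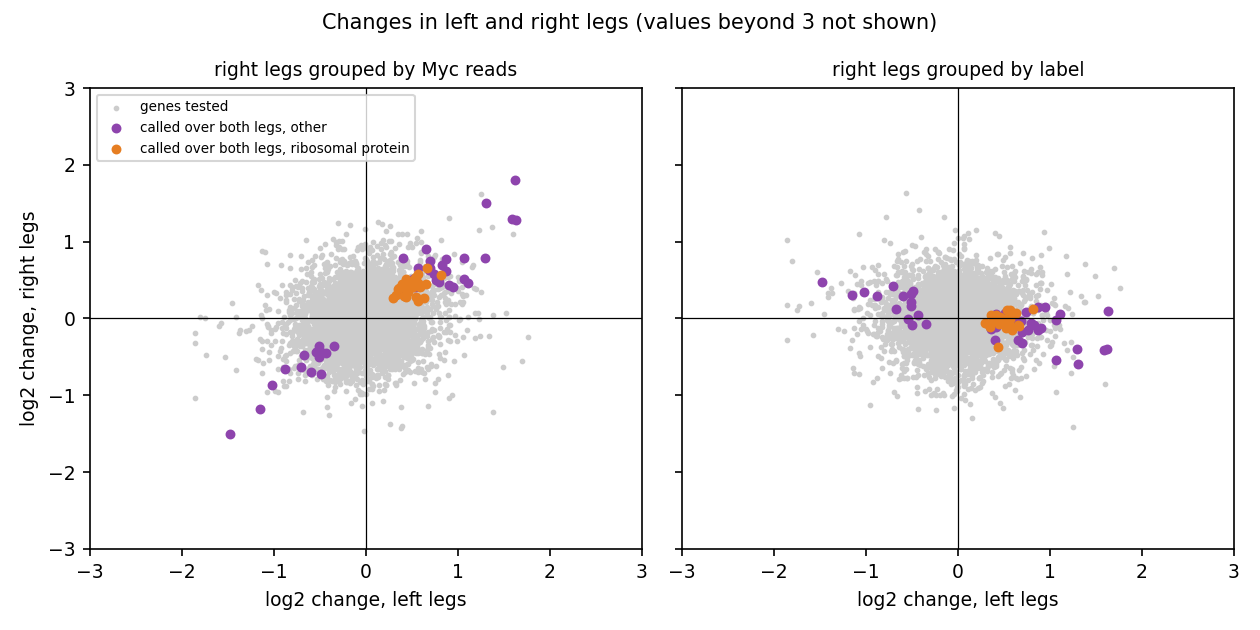
Log2 difference of each gene in the left legs (x axis) against that in the right legs (y axis), with right legs grouped by Myc reads in the left panel and by label in the right panel; grey points are all genes tested, orange the called ribosomal proteins and purple the other called genes, and values beyond 3 are not drawn. The called genes were chosen with the right legs grouped by reads, so their place in the left panel is fixed in part by that choice, and over all genes r was 0.210 on the left and -0.0443 on the right.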

How the data were processed

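Gastrocnemius RNA of 6 mice, both legs, was sequenced with a QuantSeq 3' kit after Trizol extraction, per the labels' protocols. The authors deposited raw counts, whole reads per gene and library, not normalized. The submitters' processing notes name FastQC 0.11.5, STAR 2.5.2a, SAMtools, HTSeq 0.6.0 and mm10; the strand setting and annotation release are not given in the sources used here. Of 47643 gene identifiers 419 had no symbol. Coordinates are from GENCODE's mm10 annotation.

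Libraries were grouped by Myc reads (9 or more, 2 or fewer). The members, gene lists and tests were chosen with earlier results of these data known. Of the 66 pairs of libraries 0 were identical. Myc was removed, genes were filtered with filterByExpr (minimum count 10), scaled by TMM and tested in edgeR 4.0.16 (R 4.3.3; quasi-likelihood F test, 2-sided, Benjamini-Hochberg over 6675 genes, adjusted p under 0.05 called) with leg and Myc group, or with 4 means for single legs. Each SE is the log2 difference divided by the square root of F. CPM are counts over the TMM-scaled library total. The steps of the fit over both legs were also run on simulated counts. These were drawn without an effect of the animal, so that run cannot speak to the pairing of legs. Gene lists were described by counts and medians, with no set test.

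Named genes are Myc, the 12 highest and 12 lowest log2 differences among called genes of at least 5 CPM on average, leaving out predicted models and pseudogenes, up to 4 members per list with the smallest p, and the MAX network. Tfrc, Rps19, Rpl35a, Rpl3l, Nop16, Mif, Mvd, Phb2, Cct8 and mt-Nd4 were named after their values were seen. Some genes are not reported here.

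Alternatives were RLE or no scaling, DESeq2 1.42.0, a robust fit, other filters, each library left out, the 8 libraries that go the way of their labels, log2 Myc as a covariate, the label as a covariate and the animal as a block (limma 3.58.1 where random). Grouping right legs by label was added after seeing the data. Legs of the same number and genotype come from 1 animal, per the titles. After removing the means of the 4 label groups, the 2 legs of an animal correlated across genes at between -0.122 and 0.113. Both right-leg label groups mix Myc-high and Myc-low libraries, so these values still hold that difference.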

Additional observations from a re-analysis of the deposited data

Results flagged for a closer look

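Within the Myc-high and Myc-low groups of 6, each taken after removing the leg mean on the log2 scale, 130 sets of values were examined for a library standing apart from the rest, and 2 did. For Nme1, the nucleoside diphosphate kinase, the lowest Myc-high library was that labelled contracted control 3 at 37.6 CPM, and its gap to the next was 0.642 of the group's range, where 0.625 is the critical value for 6 samples. For the chaperonins and mitochondrial import list the lowest Myc-low library was uncontracted control 3 at 1419 CPM, with a gap of 0.652 of the range. Chance marks about 1 in 20 groups, so 2 flags among 130 sets are no more than chance alone would give.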

How the results depend on the processing

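Over both legs, where 72 genes passed, the count was 72 with RLE scaling, 58 with library totals alone, 89 with DESeq2, 88 with a robust fit, 75 with the stricter filter and 52 with the 8 libraries that go the way of their labels. It was 111 with no low-count filter, 43 with log2 Myc as a continuous covariate, 28 with the label as a covariate, and 0 with the animal as a fixed block; leaving out 1 library gave 38 to 67. In the left legs, where 4 passed, the count was 2 with library totals alone, 17 with DESeq2, 18 with a robust fit, 33 with no filter, 11 with the random animal block, and 1 to 15 with 1 library left out. In the right legs, where 0 passed, it was 9 with DESeq2, 1 with a robust fit, 15 with no filter and 2 with the random animal block. By label over both legs it was 1 with no filter, and by label in the right legs 5. Differences between legs stayed at 0 in each of these settings. The pairing by animal, as a block, changed no count by label. The difference of Rpl35a turned to 0.0295 with the 8 libraries. The cause was not tested, except that no filter tests more genes (17870) and leaving out libraries uses fewer samples. The fixed animal block fits a term for each animal, which leaves less to estimate the spread. The random animal block also takes limma in place of edgeR. Another scaling moved the median of all genes by less than 0.1, from -0.01 to 0.02 on the log2 scale. At 0.601 to 0.774 CPM per read, genes such as Pycr1, Dph5 and Ighm rest on few reads, which limits their precision.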
